A study of Mus musculus with 4 samples.

Results

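The Speer cluster is a stretch of mouse chromosome 5, between 14 and 16 Mb of mm10, that holds tandem copies of the Speer gene family. Its members are the distinct H3K27me3 intervals, in the control or the irradiated peak list, whose midpoint lies in that stretch. There were 101 control and 111 irradiated intervals, 212 in all, of 9866 control and 16091 irradiated intervals, 25957 in all, in the whole lists. The stretch was chosen by its density of intervals and their p and q in these same lists. Number, sharing, width, fold and p of its intervals, and the genes and promoters they mark, are therefore given as a description and are not tested.

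The lists come from chromatin immunoprecipitation and sequencing (ChIP-seq) of H3K27me3 in a line of mouse glioblastoma cells, GL261. The study asked where this mark lies on the chromosomes of the cells after radiation. It held 4 libraries: H3K27me3 of control cells (labelled Con), H3K27me3 of irradiated cells (labelled IR), and an input library, without antibody, for each. All came from the same line with no stated change of genotype, and the dose and harvest time were not given in the sources used here. Each group had 1 library and thus no replicates. A difference between the lists is therefore a difference between libraries, which could not be set against replicate error, and every interval in the text has 95% confidence and covers counting error only.

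H3K27me3 is histone H3 that carries 3 methyl groups on lysine 27. The mark is placed by Polycomb repressive complex 2, whose catalytic subunit is Ezh2 or Ezh1, and is found at genes that are kept silent. The Speer genes code for glutamate-rich proteins of the rodent testis and arose by repeated duplication, so that neighbouring copies are close to identical in sequence. Reads from such copies are hard to place, and whether the authors kept reads that match several copies was not given in the sources used here. Values are therefore given by the position listed, and signal at 1 copy could not be told apart here from signal of its near-identical neighbours.

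The sequences show how alike the copies are. Promoters of 300 bases, 250 before to 50 after the gene start, came from RefSeq (GRCm38.p6, the assembly of mm10). Each was aligned with the promoter of Speer4c, and those with at least 85% identity over at least 200 aligned bases were called copies. The cluster held 9 copies: Gm9758, Speer4e, Gm10354, Gm17019, Gm21149, Gm21190, Gm21083, Speer4d and Speer4c. Identity to Speer4c was 97.9% to 99.1% in the aligned part, and over the 36 pairs of copies the median identity was 97.9% (96.6% to 99.1%). A second group of 12 copies lay farther along the chromosome, with starts from 25942366 to 26257762, and had 94.5% to 96.9% identity to Speer4c. Another 3 lay at neither place: Speer4f2 (88.4% identity), Speer4f1 (89.4%) and Speer4b (98.0% over 256 aligned bases). The sequences below are written 5′ to 3′ on the strand of the gene. Capitals mark bases that differ from Speer4c, or that have no partner in the alignment with it; bases of Speer4c that a copy lacks leave no mark. Speer4c (chr5:15714222-15714521, minus strand) is the reference and carried an interval in both lists. Speer4e (chr5:14938426-14938725, minus strand) carried none on its promoter. Speer4d (chr5:15618849-15619148, plus strand) carried 1 in the irradiated list alone. Gm21190 (chr5:15529173-15529472, minus strand) had the highest control fold of the 9. Speer4a (chr5:26039456-26039755, minus strand) belongs to the second group and carried none on its promoter.
Speer4c: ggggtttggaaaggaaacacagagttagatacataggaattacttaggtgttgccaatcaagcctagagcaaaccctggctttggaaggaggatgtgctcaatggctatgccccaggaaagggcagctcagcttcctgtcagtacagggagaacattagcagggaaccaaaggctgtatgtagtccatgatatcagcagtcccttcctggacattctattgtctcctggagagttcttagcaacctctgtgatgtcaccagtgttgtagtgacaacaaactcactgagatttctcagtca
Speer4e: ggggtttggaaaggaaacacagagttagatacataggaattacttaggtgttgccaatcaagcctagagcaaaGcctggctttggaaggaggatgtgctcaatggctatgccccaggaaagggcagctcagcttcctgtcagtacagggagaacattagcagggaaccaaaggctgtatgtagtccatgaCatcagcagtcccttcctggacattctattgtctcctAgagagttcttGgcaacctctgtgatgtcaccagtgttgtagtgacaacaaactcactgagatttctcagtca
Speer4d: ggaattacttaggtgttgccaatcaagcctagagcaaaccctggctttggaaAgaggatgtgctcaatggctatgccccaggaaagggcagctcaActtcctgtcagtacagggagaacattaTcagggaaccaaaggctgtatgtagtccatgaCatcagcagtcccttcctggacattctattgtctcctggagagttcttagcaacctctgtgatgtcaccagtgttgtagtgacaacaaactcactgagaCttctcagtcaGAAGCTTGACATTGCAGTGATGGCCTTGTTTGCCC
Gm21190: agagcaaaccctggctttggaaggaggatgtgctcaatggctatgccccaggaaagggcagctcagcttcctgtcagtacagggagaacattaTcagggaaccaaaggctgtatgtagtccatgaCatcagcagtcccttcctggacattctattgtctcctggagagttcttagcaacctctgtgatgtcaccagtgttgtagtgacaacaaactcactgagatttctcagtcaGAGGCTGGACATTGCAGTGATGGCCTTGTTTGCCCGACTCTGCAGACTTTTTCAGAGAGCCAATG
Speer4a: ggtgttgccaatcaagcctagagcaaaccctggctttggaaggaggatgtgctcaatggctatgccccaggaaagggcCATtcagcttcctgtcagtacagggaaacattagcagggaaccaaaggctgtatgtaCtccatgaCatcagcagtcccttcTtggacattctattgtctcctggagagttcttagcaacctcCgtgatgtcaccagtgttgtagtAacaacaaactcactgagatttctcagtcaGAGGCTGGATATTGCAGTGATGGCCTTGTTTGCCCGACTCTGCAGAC

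Speer4e differed from Speer4c at 4 bases over the whole 300, and Gm17019 at 6. The capitals at the 3′ end of Speer4d, Gm21190 and Speer4a are bases past the end of the Speer4c window, since their annotated starts lie at another point of the shared sequence. The 9 promoters of the cluster held 0 or 1 CG dinucleotide each, with a median of 0, where the median of all 32851 promoters was 7 (quartiles 3 to 20). Their GC content had a median of 47% against 52.7% of all promoters. The letters CCAAT, on either strand, were in 9 of 9 promoters of the cluster, in 10 of 12 of the second group and in 37.4% of all promoters. These matches describe the sequence and say nothing of a factor bound there. The copies were chosen by their identity to Speer4c, so CG, GC and CCAAT of the 9 are close to those of 1 sequence. They are not 9 independent values to set against all promoters.

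An interval overlapped the 300-base promoter of 7 of the 9 copies in the control list and of 8 in the irradiated list, and 7 were marked in both. Of all promoters of the table, 0.283% overlapped a control and 0.484% an irradiated interval. The value given for each list is the fold at the summit, the authors' ratio of ChIP signal to a local background. Whether that background was taken from the input library was not given in the sources used here. It is given with the number of reads at the summit and the local background, in scaled reads, that were recovered from fold and p. Gm21190 had a fold of 7.59 in the control list, from 35 reads over a background of 1.99, and 9.0 in the irradiated list, from 32 reads over 1.08. Gm9758 had 6.12 (28 reads over 2) and 7.53 (39 reads over 2). These 2 promoters had a q under 1e-05 in both lists, and at Gm9758 reads were higher in the irradiated list over the same background.

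At Speer4c the control fold was 4.43 and the irradiated fold 9.69. The reads were 27 and 28, and the background 3 and 0.704. At Gm21149 the folds were 3.15 and 5.46, from 15 reads in each list, over backgrounds of 2.27 and 0.704. At both of these promoters the lists differed in background and hardly in reads. The backgrounds are small numbers, and their error was not computed. Reads are whole numbers, and 1 read is worth 0.620 scaled reads in control and 0.554 in irradiated intervals. The depth of the libraries is unknown, so like numbers of reads do not show an equal amount of the mark.

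The remaining promoters had folds under 5 in both lists. Gm10354 had 4.11 (18 reads) and 3.49 (12 reads), Gm17019 had 3.64 (16 reads) and 3.82 (12 reads), and Gm21083 had 4.53 (14 reads) and 4.93 (16 reads). Speer4d was marked in the irradiated list alone, with a fold of 4.81, q of 0.0119 and 13 reads over a background of 0.704. The promoter of Speer4e was marked in neither list; the nearest irradiated interval began within 500 bp, at chr5:14938818-14939242, with fold 7.41 and q 1.12e-06. At a q of at most 0.05, the control list marked 4 of the 9 promoters and the irradiated list 6. The scale of q differed between the lists: a −log10 p of 5.95 had a q of 0.0236 in control and 0.0119 in irradiated intervals. Over the whole lists, irradiated intervals of this q were 3.63 times as many as control ones. The share of all promoters at this q was not computed, so 4 against 6 shows no gain particular to these promoters. In the second group, 2 of 12 promoters carried a control interval, Gm21663 and Gm7347, and 2 an irradiated one, Gm21663 and Gm21680, with folds of 3.51 to 4.49 and no q at or under 0.05. The copies elsewhere were marked in neither list (0 of 3), among them Speer4b, whose identity to Speer4c lay in the range of the cluster.

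**Figure D1:**
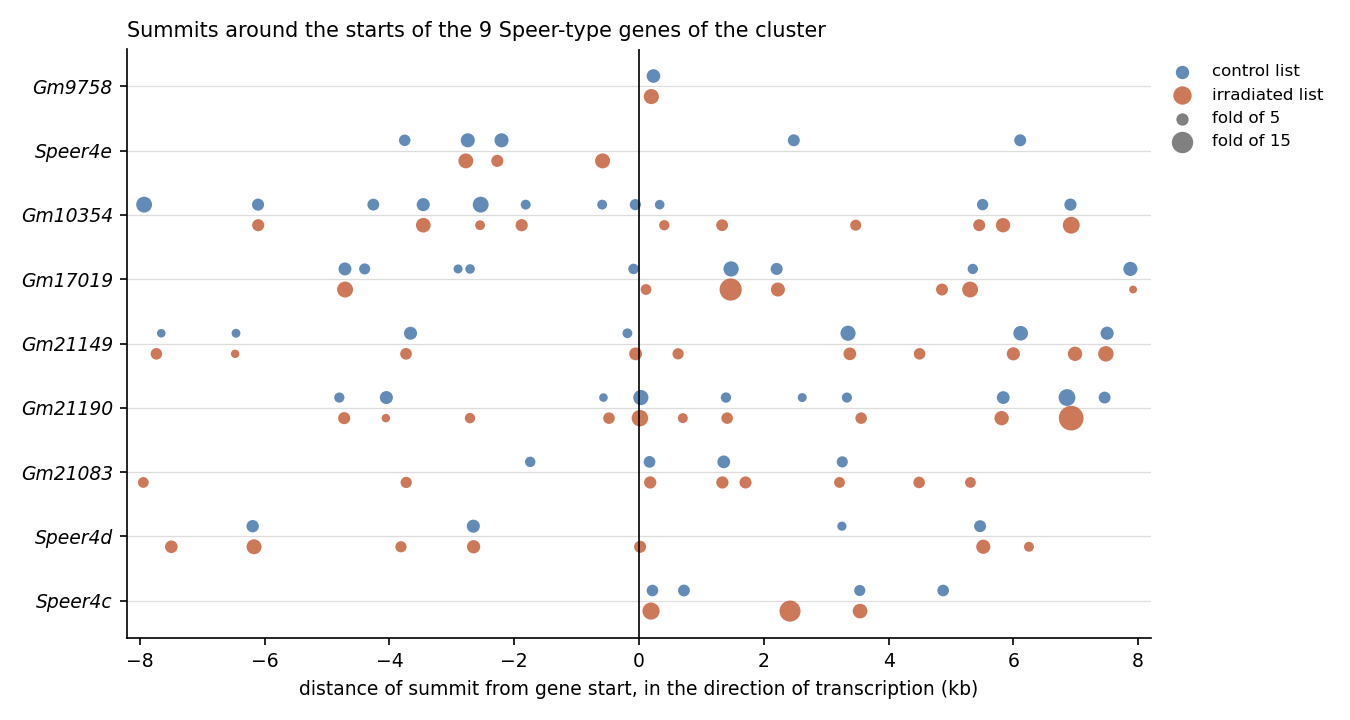
Distance of interval summits from the gene start (x axis, kb, positive in the direction of transcription), up to 8000 bp on either side, for the 9 copies of the cluster, 1 row each; point area is proportional to fold, and blue is the control and orange the irradiated list. Summits lie on both sides of the starts. In the first 1 kb inside the start 5 copies have a control summit and 8 an irradiated one, and in the 1 kb before it 4 and 3 copies do.

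Summits were not confined to the starts. Within 1000 bp inside the start, 5 of 9 copies had a control summit and 8 of 9 an irradiated one. In the 1000 bp before the start, 4 copies had a control summit and 3 an irradiated one. These counts depend on the border: at Gm17019 the control summit lay at -88 bp and the irradiated one at 112 bp. They show no gain at the starts. Between 3000 and 4000 bp inside, 5 copies had one in each list, and between 2000 and 3000 bp before the start, 4 in each list. From 6000 to 5000 bp before the start no copy had a summit in either list. The plot of summits around the starts shows that at Gm9758 the lists held 1 summit each within 8000 bp, while Gm10354 had them on both sides of its start.

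The 5 genes of the stretch that carry the Speer name were Speer4e, Speer4d and Speer4c, which are protein-coding, and Speer8-ps1 and Speer4cos, which are transcribed pseudogenes. A gene was called marked where an interval overlapped it or the 2000 bp on either side. All 5 were marked in both lists. Of the 10 Speer genes elsewhere, 2 were marked in the control list (Speer4f1 and Speer4a) and 1 in the irradiated list (Speer4a). Of all annotated genes, the control list marked 5.12% and the irradiated list 7.06%. Intervals are dense in the stretch by its choice, so 5 of 5 marked genes there show no trait of Speer genes. Speer1, Speer3, Speer2, Speer4f2, Speer4b, Speer5-ps1, Speer6-ps1 and Speer9-ps1 had no interval in either list.

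Speer4cos (chr5:15680710-15714596), the longest of the 5, held 11 intervals in each list. Its strongest control interval, just outside the gene, had a fold of 7.07 from 44 reads over a background of 3. Its strongest irradiated interval, at chr5:15680546-15681008, had a fold of 11.9 from 66 reads over 2.16, and the control interval at the same place had 5.01 from 55 reads over 6. Speer4c (chr5:15709505-15714298) lies inside Speer4cos and shares its intervals, 3 in each list. The strongest irradiated interval of Speer4c, chr5:15711628-15712097, inside the gene, had fold 14.6 and q 1.49e-22, from 43 reads over the lowest background of that list. No control interval overlapped it, and the nearest was 621 bp away.

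Speer8-ps1 (chr5:14945294-14978541) held 7 control and 10 irradiated intervals. The strongest control one, at chr5:14971767-14972148, had a fold of 4.90 from 30 reads over 3, and the irradiated one at the same place had 9.36 from 37 reads over 1.30. Speer4d (chr5:15619099-15623864) had 2 control and 3 irradiated intervals, with strongest folds of 4.72 and 6.59. Speer4e (chr5:14933631-14938475) had 3 and 1, with strongest folds of 6.51 and 7.41 at different sites. The control site of fold 6.51 had an irradiated interval too, chr5:14940540-14941430, with fold 7.29 and q 2.56e-07. It began just past the 2000 bp and was not counted for the gene. The 2 pseudogenes, of 33248 and 33887 bp, thus had more intervals than the 3 coding genes, of 4766 to 4845 bp. These counts include the 2000 bp on either side, were not set per length, and count the 3 of Speer4c in Speer4cos too. Exons and introns were not in the table used here.

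The stretch had 24 annotated genes, of which 17 were marked in the control list, 16 in the irradiated list, 16 in both and 7 in neither. Of 12 protein-coding genes, 10 and 9 were marked, where 6.05% and 8.19% of all protein-coding genes were. The choice of a stretch with dense intervals raises such shares, so they show no trait of its genes. Most of the marked genes that are not called Speer are predicted genes. Their counts include intervals in the 2000 bp on either side, and an interval can count for several genes. Gm30417, a long non-coding RNA gene that contains Speer4d, had 6 control and 13 irradiated intervals, of which 6 and 11 overlapped the gene. Gm30613, another long non-coding RNA gene, which contains Gm21083, had 9 and 9, of which 7 and 7 overlapped the gene. The strongest, both outside the gene but within 2000 bp, had folds of 11.3 (35 reads over 1) and 5.18 (45 reads over 4). Gm21190 had 6 and 5, Gm21847 6 and 4, Gm10354 4 and 6, Gm21149 3 and 6, Gm21083 4 and 5, and Gm17019 3 and 3. Gm52805 had 1 and 3 and 4930572O03Rik 1 and 2.

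The protein-coding genes of other families at the edges of the stretch stood apart from the Speer-type copies. Sema3e, which codes for a secreted semaphorin, a guidance signal, and Pclo, which codes for a scaffold protein of the presynapse, had no interval in either list, although Pclo spans 348560 bp. Cacna2d1, which codes for an accessory subunit of voltage-gated calcium channels, had 1 control interval (chr5:15949784-15950170), with fold 2.78, 7 reads and q 1. Of the intervals of the stretch, 44 of 101 control ones (43.6%) and 52 of 111 irradiated ones (46.8%) overlapped an annotated gene. Over the whole lists the shares were 42.5% and 48.0%, close to those of the cluster.

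The intervals formed 2 blocks. The proximal block (chr5:14905288-15055075, 150 kb) held 41 control and 37 irradiated intervals. The distal block (chr5:15458546-15714386, 256 kb) held 59 and 74. Between them were 403 kb with no interval in either list and no gene of the table. Whether the assembly has sequence there, and whether reads can be placed on it, was not tested. The only other interval was the one in Cacna2d1, 235 kb past the distal block. Density was 2.74 control and 2.47 irradiated intervals per 10 kb in the proximal block, and 2.31 and 2.89 in the distal block. The irradiated list thus held fewer intervals than the control list in the proximal block and more in the distal one; neither difference was tested. The intervals covered 15.3% and 12.8% of the proximal block and 12% and 14.7% of the distal block, and median folds were 4.72 and 4.93 in the first and 4.64 and 5.20 in the second.

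The blocks had sharp edges. Before 14 Mb the last control interval of chromosome 5 began at 10029859 and the last irradiated one at 8126614, and after 16 Mb the first began at 17404794 and 17468167. Neighbouring summits were a median of 2.44 kb apart in the control and 2.15 kb in the irradiated list, against 50 and 15.7 kb on chromosome 5 outside the stretch. Of the 20 windows of 100 kb, 7 held an interval. The fullest, from 15600001 to 15700000, held 22 control and 32 irradiated intervals.

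**Figure D2:**
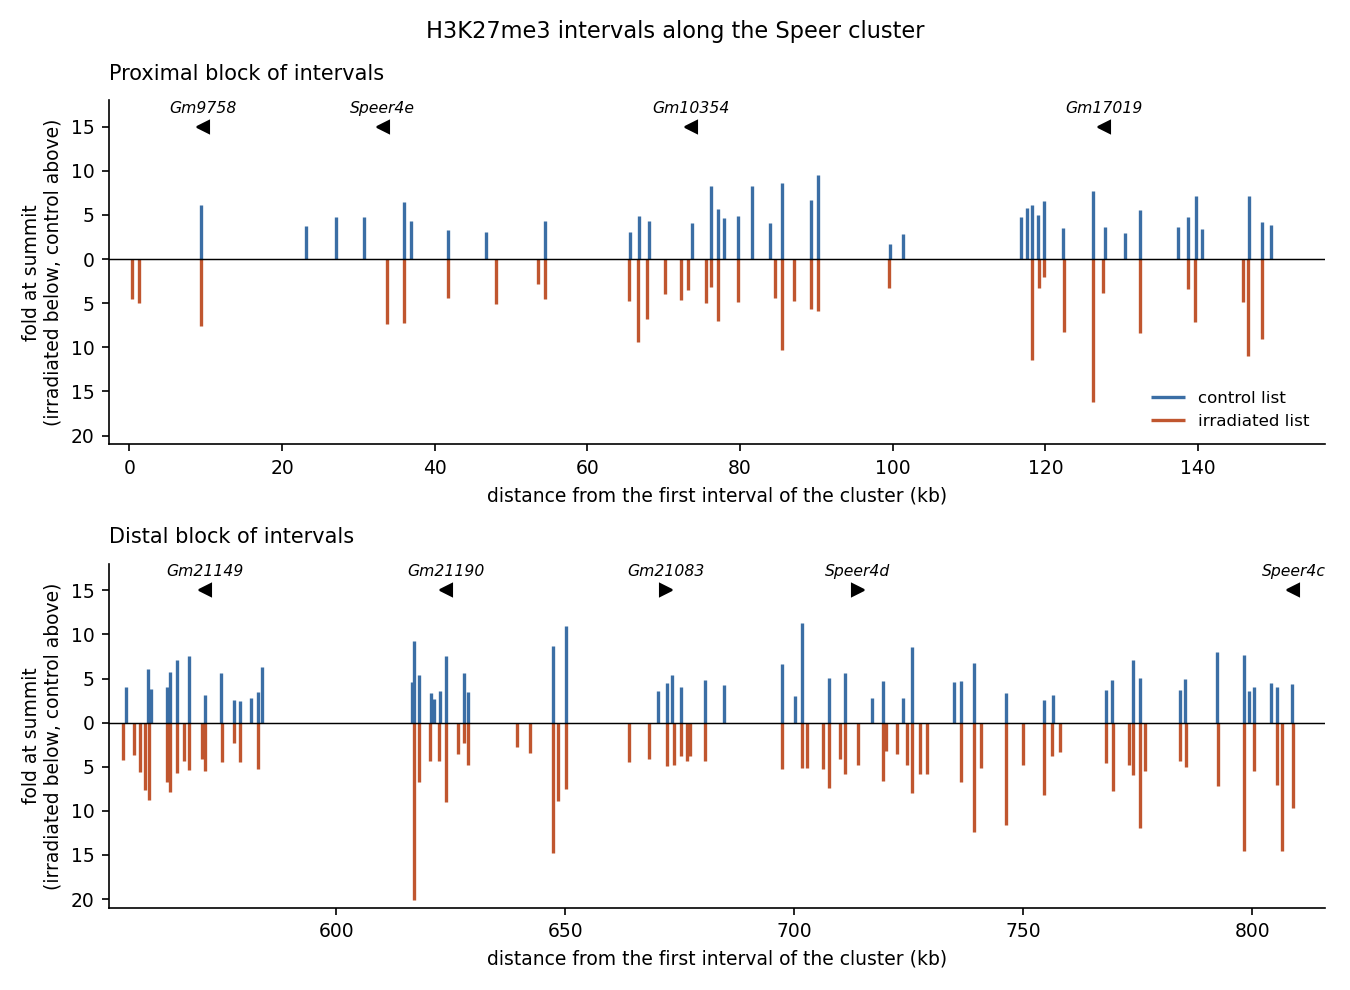
Fold at the summit (y axis; control upward in blue, irradiated downward in orange) of each interval by its distance from the first interval of the cluster (x axis, kb), with the proximal block above and the distal block below; black triangles are the starts of the 9 Speer-type copies and point in the direction of transcription. The intervals fill both blocks, and the highest stems are the control one of 11.3 and the irradiated one of 20.1, both in the distal block; the single interval in Cacna2d1 is not drawn.

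The ratio of irradiated to control intervals was 1.10 (0.832 to 1.45) in the stretch and 1.63 (1.59 to 1.67) over the whole lists. At a q of at most 0.05 it was 1.25 (0.888 to 1.75) and 3.63 (3.34 to 3.96), while at a q of at most 1e-05 it was 1.26 (0.788 to 2.04) and 1.47 (1.17 to 1.84). At the first 2 thresholds the interval numbers differed between the lists by less here than over the whole lists, and at the strictest the confidence intervals overlap. Neighbouring intervals of 1 library need not be independent, so whether confidence intervals overlap is no test. The stretch held 1.02% of the control list (0.835 to 1.24) and 0.690% of the irradiated list (0.568 to 0.830). Intervals with a q of at most 0.05 were 65 of 101 in the control list (64.4%, against 6.84% of the whole list) and 81 of 111 in the irradiated list (73.0%, against 15.2% of that list). Of this q, the stretch held 9.63% of the control and 3.30% of the irradiated intervals. At a q of at most 1e-05 it held 34 of 135 and 43 of 198 intervals, 25.2% and 21.7%, while such intervals made up 1.37% and 1.23% of the whole lists. Of the 100 intervals with the lowest p in each list, 21 and 26 lay here.

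Most intervals of the cluster lay at the same place in both lists, though none had the same start and end. Of the control intervals 75 of 101 (74.3%, 64.6 to 82.4) had an irradiated interval over at least 1 of their bases, and 75 of 111 irradiated intervals (67.6%, 58.0 to 76.1) a control one. The share over the whole lists was 21.4% and 13.3%, and on chromosome 5 outside the stretch 14.8% and 7.65%. The share was not particular to the Speer cluster: between 30 and 35 Mb of the X chromosome, a longer stretch that also holds many intervals of low q, it was 72.7% (112 of 154) and 74.2% (118 of 159). With overlap defined as at least 50% of both intervals, the shares were 61.4% and 55.9%.

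The shared portion was larger among strong than among weak intervals of both lists, so it is given by class of q. Density was not matched. Neighbouring summits were a median of 2.44 and 2.15 kb apart in the cluster, and 50 and 15.7 kb on chromosome 5 outside it. Dense intervals overlap more readily, and the part of density in these shares was not tested. Of control intervals with a q above 0.05, 20 of 36 in the cluster (55.6%, 38.1 to 72.1) were shared, and 18.5% of those elsewhere. Of irradiated intervals with such a q the share was 13 of 30 (43.3%, 25.5 to 62.6), and 10.3% elsewhere. With a q from 1e-05 to 0.05 the control shares were 71.0% (52.0 to 85.8) against 49.3% (44.9 to 53.7), with confidence intervals that overlap. The irradiated shares of that class were 60.5% (43.4 to 76.0) against 24.5% (22.7 to 26.3). At a q of at most 1e-05 the control shares were 97.1% (33 of 34) and 91.1%, and the irradiated shares 90.7% (39 of 43) and 78.1%, again with overlapping confidence intervals.

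In the control list 26 intervals and in the irradiated list 36 had no partner, and 6 and 7 of them lay within 500 bp of an interval of the other list. With a q of at most 1e-05 there was 1 such control interval, chr5:14986617-14987079, with a fold of 8.29 from 30 reads over 1.36 and its nearest irradiated interval 1409 bp away. There were 4 such irradiated intervals. They were the one in Speer4c described above, chr5:15553270-15553883 (fold 8.92, 33 reads over 1.16), the one before the start of Speer4e, and chr5:15632494-15632838 in Gm30417 (fold 5.87, 30 reads over 2).

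Median width was 433 bp in the control (quartiles 358 to 635) and 422 bp in the irradiated list (340 to 618), against 356 and 363 bp outside the cluster and 408 and 408 bp between 30 and 35 Mb of the X chromosome. The widest were 2316 and 1554 bp, both far shorter than either block. Shared intervals had medians of 476 and 473 bp, and the others 374 and 344 bp. More than 1 summit was listed for 11 control intervals of the cluster (10.9%) and 12 irradiated ones (10.8%). Over the whole lists 1.82% and 3.55% of intervals had more than 1, and in the X chromosome stretch 16.9% and 16.4%. In all they covered 53958 bp in the control and 56661 bp in the irradiated list.

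The median fold was 4.65 in the control (quartiles 3.60 to 6.12, range 1.66 to 11.3) and 5.14 in the irradiated list (4.38 to 7.32, range 2.04 to 20.1), against 3.43 and 3.66 outside the cluster and 4.50 and 5.53 in the X chromosome stretch. The −log10 of the authors' p had medians of 6.87 and 7.73, with highest values of 22.8 and 44.0, against medians of 3.42 and 4.03 outside the cluster and 6.92 and 9.24 in the X chromosome stretch. The summits held a median of 22 and 23 reads, against 10 and 11 outside and 20 and 23 in the X chromosome stretch. The local background was at least 1.5 times the lowest of the list in 72 control intervals (71.3%, 61.4 to 79.9, against 14.9% of the whole list) and in 63 irradiated ones (56.8%, 47.0 to 66.1, against 26.4%), and in 58.4% and 49.7% of those in the X chromosome stretch. Width, fold, p, reads and background of the cluster were thus near those of the X chromosome stretch, and none of them is particular to it. The median background was 2.00 scaled reads for control and 1.24 for irradiated intervals, and the lowest backgrounds were 0.918 and 0.704. Reads and background were thus both high in the cluster, and the part of either in the sharing was not tested.

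**Figure D3:**
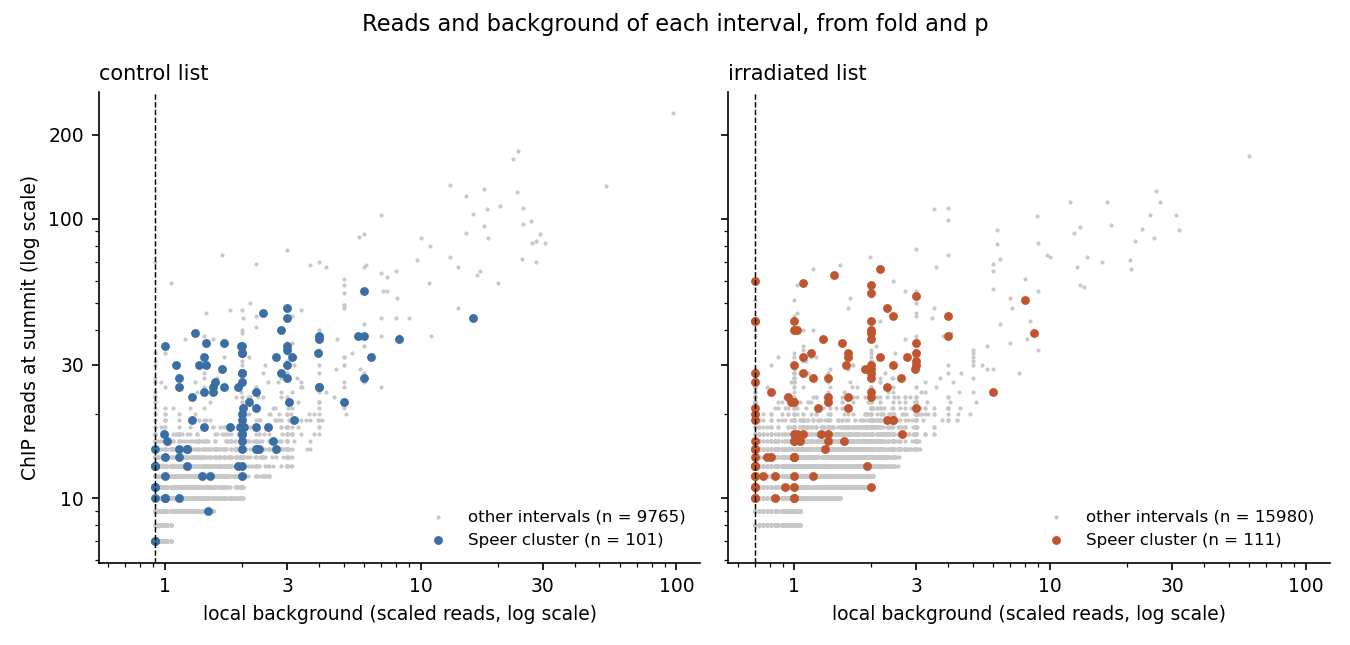
ChIP reads at the summit (y axis, log scale) against the local background (x axis, scaled reads, log scale) of each interval, with the control list on the left and the irradiated list on the right; coloured points are the cluster, grey points all other intervals, and the dashed line is the lowest background of the list. Most of the 101 control and 111 irradiated points of the cluster lie high among the grey points in reads (medians of 22 and 23 against 10 and 11), and most lie right of the dashed line.

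The intervals with the lowest p show how fold was built. In the irradiated list the strongest was chr5:15522083-15522545 in Gm21847, within 2000 bp of Gm21190, which ranked 3 in the whole list. Its fold was 20.1 and its q 9.59e-38, from 60 reads over 0.704, and the control interval at the same place had a fold of 9.30 from 30 reads over 1.11. At this site reads were higher and background lower in the irradiated list. At chr5:15030524-15031742 in Gm17019 the irradiated fold was 16.2 from 59 reads over 1.08, and the control fold 7.69 from 48 reads over 3. At chr5:15552283-15552786, outside any gene, the folds were 14.8 (63 reads over 1.43) and 8.64 (46 reads over 2.41). At chr5:15051637-15052296, also between genes, the background was 2 in both lists, and the irradiated fold was 11 from 58 reads against a control fold of 7.15 from 33 reads.

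The strongest control interval, chr5:15555082-15555658, had fold 10.9 and q 7.54e-18, from 39 reads over 1.31. The irradiated interval there had a lower fold, 7.56, from more reads, 45, over a background of 2.43. The control interval with the highest fold, chr5:15606208-15607253, had 11.3 from 35 reads over 1, and the irradiated one there had 5.18 from 45 reads over 4. At chr5:14995272-14995791 the control fold was 9.52 (36 reads over 1.45) and the irradiated fold 5.92 (32 reads over 2.16). At these 3 sites the fold was lower in the irradiated list, and unscaled reads were higher there in 2 of them. Since 1 read is worth 0.620 scaled reads in control and 0.554 in irradiated intervals, 45 against 39 reads does not show more signal.

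The cluster held 65 pairs that overlapped 1 to 1. Their ratio of irradiated to control fold had a median of 1.23 (quartiles 0.905 to 1.67), and that of the 1867 pairs elsewhere 1.13 (0.954 to 1.35). The irradiated fold was the higher of the pair in 45 of 65 (69.2%, 56.6 to 80.1), and in 69.6% of all pairs. In the 22 pairs with a q of at most 1e-05 in both lists the median ratio was 1.24 (range 0.457 to 2.37), and in the 55 such pairs elsewhere 1.09. The direction of the fold was therefore that of all pairs. Summits lay close together: they were within 100 bp in 55 of the 65 pairs (84.6%, against 40.7% of all pairs), with a median distance of 29 bp against 147 bp elsewhere. Among pairs with a q of at most 1e-05 in both lists, the shares were 86.4% in the cluster and 87.3% elsewhere.

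Reads and background of the pairs were set apart. The median ratio of irradiated to control was 1.07 for reads and 0.704 for background. The units differ: reads are whole numbers, and background is in scaled reads, of which 1 read is worth 0.620 (control) and 0.554 (irradiated). On that scale every read ratio given here would be lower, so a ratio just above 1 does not show more signal after irradiation. In the 1867 other pairs it was 1.10 and 0.767, and the lowest backgrounds of the lists also have a ratio of 0.767, so a lower irradiated background was found outside the cluster too. In the 32 pairs whose backgrounds were within 1.5 times of each other, the median fold ratio was 1.01 (range 0.622 to 1.74), and the irradiated fold was higher in 17 of them. In the 29 pairs with the background at least 1.5 times higher in the control list the fold ratio was 1.71, and in the 4 with the higher background in the irradiated list it was 0.439. The median read ratios of the 3 sets were 1.07, 1.08 and 1.08. Since fold is computed from the background, the fold ratios of the sets must differ in this direction, while the read ratios need not. In 8 pairs the irradiated fold was more than 2 times the control fold (3.05% of all pairs were), and in 8 of these 8 the control background was higher; their read ratio was 1.28 (range 1.04 to 2). In the 3 pairs where the control fold was more than 2 times the irradiated one, the background ratio was 1.56 to 4.23 and the read ratio 0.579 to 1.29.

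**Figure D4:**
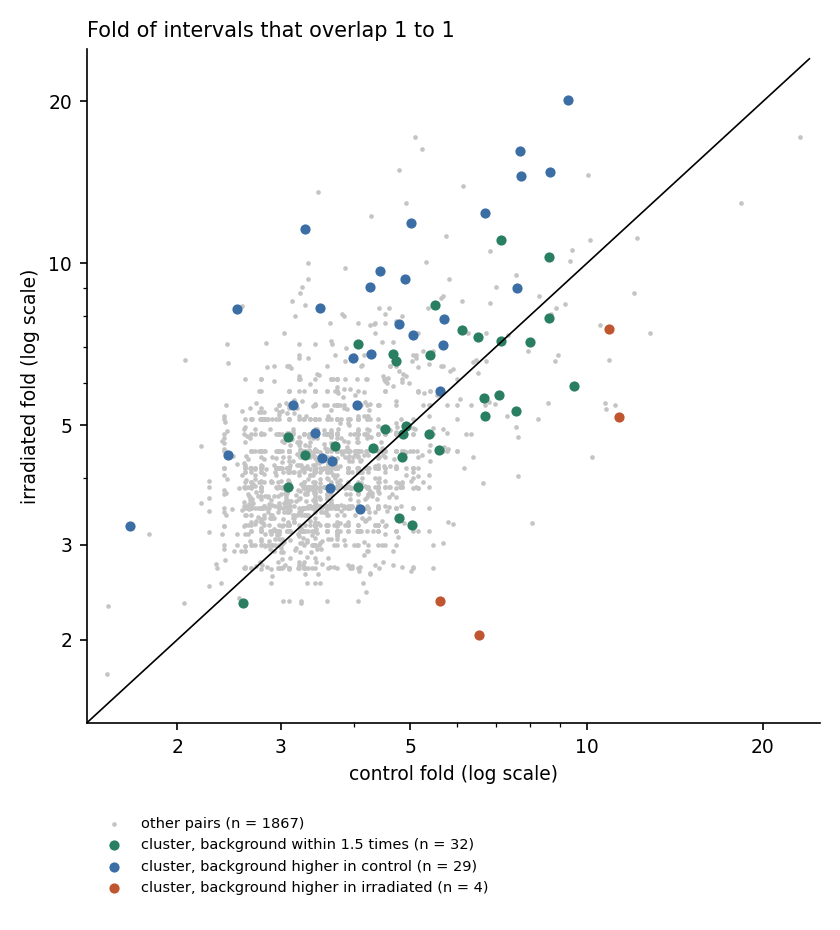
Irradiated fold (y axis, log scale) against control fold (x axis, log scale) of intervals that overlap 1 to 1; grey points are the 1867 pairs outside the cluster, coloured points the 65 pairs of the cluster by which list has the higher local background, and the line marks equal folds. The 4 orange pairs (background higher in irradiated) lie below the line, 28 of the 29 blue pairs (higher in control) lie above it, and the 32 green pairs (within 1.5 times) lie on either side.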

How the data were processed

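H3K27me3 ChIP-seq of GL261 cells was deposited as 1 peak list for each of 2 libraries, control and irradiated (the inputs had no list analysed here). BWA, deepTools and mm10 are named, without versions, in the submitters' processing notes; peak caller, its use of the input, duplicate and multi-mapping filters were not given in the sources used here. Chromatin was fixed with formaldehyde and sonicated, per the labels' protocols, and peaks were listed per library. The other deposited values, start, end and summit, are positions in bp and are printed counted from 1. The deposited score equalled the −log10 p times 10, rounded down, in all 10081 control lines and all 16770 irradiated ones. The deposited ratio is the fold at the summit over the local background, and the authors' −log10 p-value and q-value are those before and after adjustment over the genome. The highest p was 0.00495 and 0.00499, so many listed intervals have a high q.

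Further summits of the same interval, 215 control and 679 irradiated lines, were merged with it, keeping the values at the highest −log10 p. Reads and background were recovered by solving fold, (scaled reads + 1) over (background + 1), and p, the upper Poisson tail, for a whole number of reads, with 1 read worth 0.620 (control) and 0.554 (irradiated) scaled reads. All lines (100%) had a solution within a tolerance of 0.001, with more than 1 in 0.286% of irradiated lines, 2 of them in the cluster. Tested on simulated lists of 3066 and 3507 peaks, nearly all came out right, 100% after rounding. A common peak caller uses this model; the labels name none. Library totals are unknown.

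Promoters were aligned locally with Biopython 1.88 (match 2, mismatch -3, gap opening -5, extension -2); the nearest promoter under the limit had 76.4% identity. Intervals of shares are exact (Clopper-Pearson) and those of count ratios binomial (SciPy 1.17.1). Named were all Speer genes and other named protein-coding genes of the stretch, the 10 Gm or Rik genes with most intervals, and intervals from the 10 of each list with the lowest p; promoter copies, unpaired intervals and Speer genes elsewhere were added after their values were seen. The limit of 1.5 times between the backgrounds of a pair was also set after seeing the data, in place of a narrower one tried first. The members and lists were chosen with earlier results of these data known. No test between conditions was made. Alternatives were other thresholds, overlaps, windows and borders.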

Additional observations from a re-analysis of the deposited data

How the results depend on the processing

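Of 77 alternative values for 21 results, 64 stayed within the counting interval or within 1.5 times of the value given, and 13 moved. None reversed. Some of the 64 could not move and are no check. No interval lay near the borders, so other borders changed nothing, and equal numbers of intervals left the control list whole. Identity limits of 80% and 95% kept the same copies of the cluster. At a q of at most 0.05 the control intervals numbered 65, the median control fold was 5.59 and the irradiated one 5.87, and 4 promoter copies were marked in the control list (this last alternative was chosen after seeing the data). Merging intervals within 1000 bp left 69 irradiated and 68 control intervals, with a ratio of 1.01 in place of 1.10. Sharing was 61.4% of control and 55.9% of irradiated intervals with a reciprocal overlap of 50%, and 59.4% and 54.1% with summits within 100 bp. A background of at least 2 times the lowest was found in 56.4% and 42.3% of intervals, and of 3 times in 23.8% and 21.6%. Merging joins neighbours by construction, and the other alternatives are stricter definitions. No paired analysis was possible because each group had 1 library, and no replicate could be left out for the same reason. The number of reads at a summit, a median of 22 and 23, limits each fold. So does the local background, a median of only 2.00 and 1.24 scaled reads, whose error was not computed. Placement between near-identical copies was not tested.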
